A study of Mus musculus with 6 samples.

Results

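The 9 genes described here belong to the response of cells to interferon and to double-stranded RNA. Tlr3, Ifih1, Eif2ak2 and Oas2 encode proteins that bind double-stranded RNA, Irf1 encodes a transcription factor of the response, and Mx2, Ifitm1, Ifitm2 and Ifitm3 are antiviral effector genes. They were read from the 13 probe sets, called rows from here on, that the array annotation assigns to 1 of these symbols alone. The value table has 35556 rows, of which 23410 carry at least 1 gene. Ifitm2 had 3 rows, Ifitm1 and Irf1 had 2 rows each, and the other 6 genes had 1 row each. The 3 Ifitm2 rows are annotated with the same transcript accessions, and so are the 2 Ifitm1 rows. The annotation thus does not assign the rows of these genes to separate transcripts. The 2 Irf1 rows are annotated with different accessions.

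The study profiled messenger RNA on 6 Affymetrix arrays of A3-1, a line of mouse embryonic stem (ES) cells grown in medium with serum and LIF, the cytokine that holds these cells undifferentiated. Cells were left without siRNA (untreated), given a control siRNA against green fluorescent protein (siGFP), or given an siRNA against Lin28a (siLin28a), with 48 h of incubation for the siRNA groups. Each group has 2 arrays, and since no label says that these were separate cultures, the spread behind every p-value may be technical. Each siRNA group received 1 duplex, and a group given the delivery agent alone is not analysed here.

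Double-stranded RNA is a hallmark of virus infection. TLR3 in endosomes and MDA5, the product of Ifih1, in the cytosol signal through adaptor proteins to induce type I interferon, and secreted interferon acts through its receptor, JAK kinases and STAT proteins to switch on a large set of effector genes. PKR, the product of Eif2ak2, halts translation when it binds double-stranded RNA, and OAS enzymes make the short oligoadenylates that activate the nuclease RNase L. Mouse ES cells are known for a weak interferon response to double-stranded RNA.

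The siRNAs are themselves short double-stranded RNAs, and their strands are shown because they define the siRNA groups and differ between them. Each strand is written 5′ to 3′ as the labels give it, with the ribonucleotides in lower case and the deoxythymidine overhang in capitals.
siGFP strand 1: ugaauuagauggcgauguuTT
siGFP strand 2: gacaucgccaucuaauucaTT
siLin28a strand 1: gcagaagcgaagauccaaaTT
siLin28a strand 2: uuuggaucuucgcuucugcTT
Both duplexes pair over 19 positions with overhangs of 2 bases. All 19 positions of the siLin28a duplex are Watson-Crick pairs, while the siGFP duplex has 18 Watson-Crick pairs and 1 G-U pair. The siGFP strands hold 7 and 8 G or C bases, and each siLin28a strand holds 9.

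All values are log2 expression as deposited, in steps of 0.1, and a log2 fold change is the difference between 2 group means. The median over all rows was 5.2 or 5.3 in every array. The targeted transcript Lin28a read 9.1 and 9.4 both in untreated cells and with siGFP, and 7.4 in each siLin28a array (log2 fold change −1.85 against siGFP, SE 0.16, adjusted p 0.512 by limma). The 10 ES cell markers, among them Pou5f1, Sox2 and Nanog, lay between 7.8 and 12.7, and the mean over the 10 was 10.66 to 10.72 in untreated, 10.60 to 10.81 in siGFP and 10.29 to 10.38 in siLin28a arrays. All 10 were lower with siLin28a than with siGFP, with a median log2 fold change of −0.30, and 0 of them passed by limma after adjustment (5 of 10 at an unadjusted p under 0.05, all lower, against 2.26% of all rows). The mean over 7 germ cell markers was 6.87 to 6.91, 6.86 to 6.96 and 6.56 to 6.64 in the same groups, and that over 8 primitive endoderm markers lay between 4.68 and 4.76 in all arrays. Markers of cells that carry strong interferon responses were mostly dim: 9 of 11 leukocyte markers, 9 of 12 fibroblast markers and 5 of 8 endothelial markers had a mean under 6. The mean over the leukocyte markers was 4.64 to 4.73 in untreated, 4.75 to 4.83 in siGFP and 4.75 to 4.80 in siLin28a arrays. Among them the pan-leukocyte gene Ptprc was at 3.3 and 3.4 in untreated, 3.6 and 3.8 in siGFP and 3.6 and 3.7 in siLin28a arrays. Laptm5, a lysosomal gene of blood cells, was at 7.1 and 7.5, 8.3 and 8.2, and 8.0 and 8.1 in the same groups. For siGFP against untreated cells Laptm5 had a log2 fold change of 0.95 and Ptprc of 0.35. The other leukocyte markers lay between −0.25 (Lyz2) and 0.15 (Cd14) there. The median over the 11 was 0.05, with 7 higher, 2 lower and 2 equal. The fibroblast mean was 5.03 to 5.21, 5.03 to 5.09 and 5.09 to 5.13 in the same groups, and the endothelial mean 5.36 to 5.36, 5.45 to 5.46 and 5.50 to 5.56. Among the endothelial markers the receptor gene Tek was at 6.1 and 6.0 in untreated, 6.8 and 6.6 in siGFP and 7.2 and 7.1 in siLin28a arrays, a log2 fold change of 1.10 (SE 0.13) for siLin28a against untreated cells, while the other 7 markers lay between −0.15 and 0.20 there. The part of these markers in the results was not tested, and in such bulk samples fewer expressing cells and less RNA per cell cannot be told apart.

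None of the 13 rows passed the threshold of 0.05 in any comparison by limma with Benjamini-Hochberg adjustment over the 23410 rows with a gene. The same test called 0% of all rows in each comparison, so no member is said to have risen or fallen. Between siGFP and untreated cells, 1 of the 13 rows had an unadjusted p under 0.05 against 3.52% of all rows (0 higher against 2.19%, 1 lower against 1.33%). The arrays of the groups did not overlap for 2 of 13 against 17.7% (1 higher against 9.22%, 1 lower against 8.46%). Between siLin28a and siGFP, 2 of 13 had an unadjusted p under 0.05 against 4.05% (2 higher against 1.79%, 0 lower against 2.26%), and 7 of 13 did not overlap against 20.8% (2 higher against 9.03%, 5 lower against 11.8%). Those 7 rows are both of Ifitm1, 1 of Ifitm2 and those of Ifitm3, Mx2, Oas2 and Eif2ak2. Rows of the same gene are not separate members, and with only the brightest row of each gene 5 of 9 did not overlap (2 higher and 3 lower). Between siLin28a and untreated cells, 2 of 13 had an unadjusted p under 0.05 against 6.44% (0 higher against 2.89%, 2 lower against 3.55%), and 6 of 13 did not overlap against 23.7% (2 higher against 11.1%, 4 lower against 12.6%). By brightest row, 1 of 9 had an unadjusted p under 0.05 by limma, lower, and 4 of 9 did not overlap (2 higher and 2 lower). The median log2 fold change over the 13 rows was −0.10, −0.10 and −0.15 in these comparisons, and it was 0.00 over all rows in each. Shifting the arrays to the same median changes the direction split of all rows at an unadjusted p under 0.05, from 513 higher and 312 lower to 752 and 137 for siGFP against untreated cells, and from 419 and 530 to 229 and 742 for siLin28a against siGFP.

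**Figure D1:**
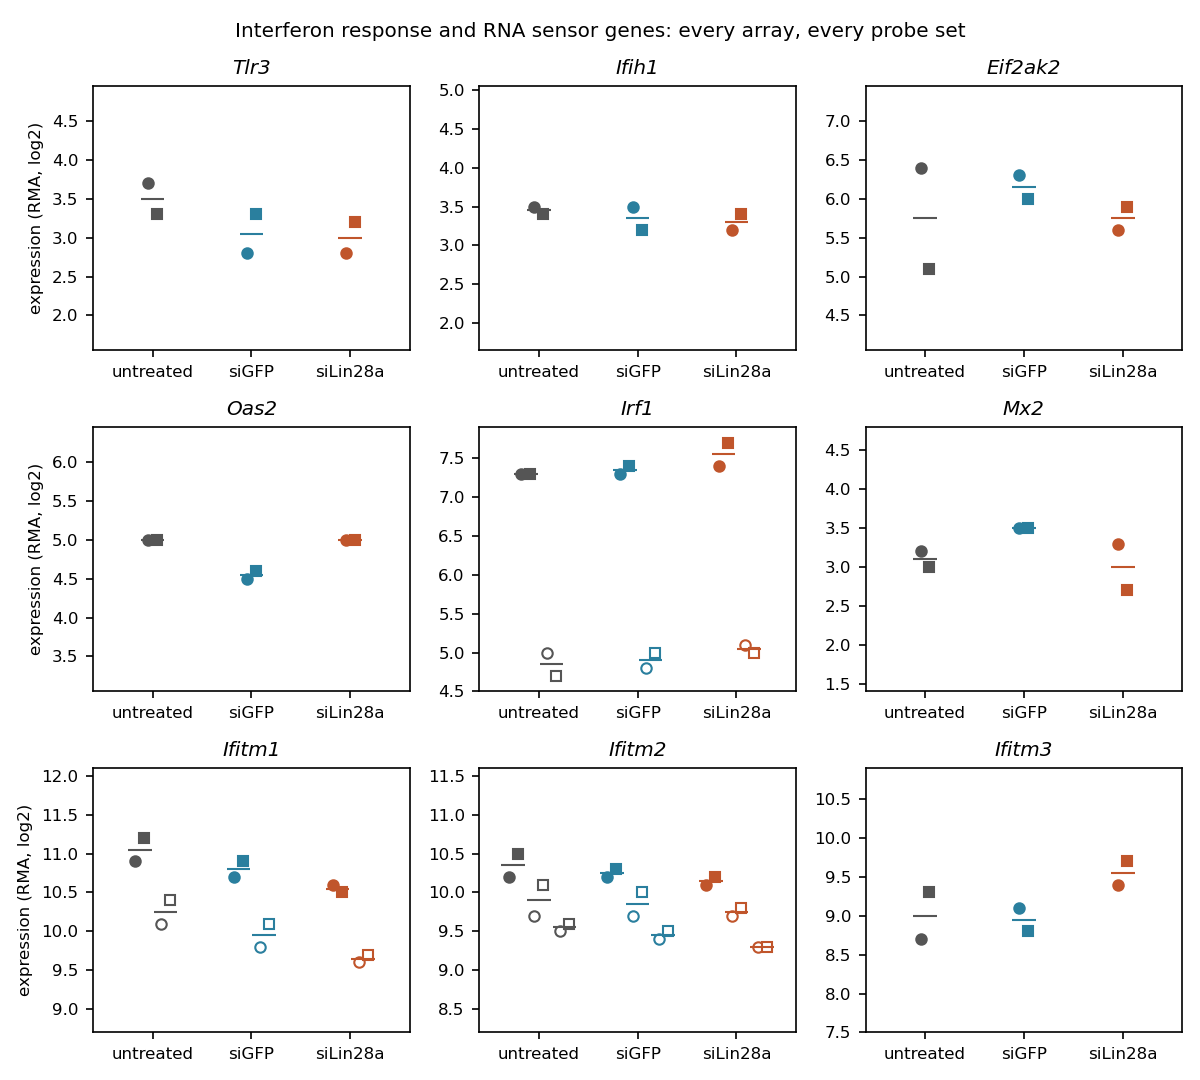
Deposited log2 expression (y axis, each panel spans the same range of log2 units) of the 9 genes in the untreated, siGFP and siLin28a groups (x axis). Circles are replicate 1 and squares replicate 2, lines are group means of 2 arrays, and open symbols are the further rows of a gene; Oas2 is at 5.0 in all untreated and siLin28a arrays and at 4.5 and 4.6 with siGFP, and Ifitm3 is at 9.4 and 9.7 with siLin28a, above the other 4 arrays.

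The question for the sensors was whether transcripts that detect double-stranded RNA differ after siRNA delivery. Tlr3 was at 3.7 and 3.3 in untreated cells, at 2.8 and 3.3 with siGFP and at 2.8 and 3.2 with siLin28a. Its values were dim, below the median of all rows in 6 of 6 arrays, and the siGFP arrays touched the untreated range. Tlr3 had a log2 fold change of −0.45 (SE 0.24) in siGFP against untreated cells (n = 2 per group) and of −0.50 (SE 0.24) for siLin28a against untreated cells. The former lay between −0.70 (without siGFP replicate 2) and −0.20 (without siGFP replicate 1). The latter lay between −0.70 (without untreated or siLin28a replicate 2) and −0.30 (without replicate 1 of either). Between the siRNA groups it was −0.05, with a 95% interval from −0.63 to 0.53. It turned to 0.20 without siGFP replicate 2 and to 0.15 without siLin28a replicate 1.

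Ifih1 was at 3.5 and 3.4 in untreated cells, at 3.5 and 3.2 with siGFP and at 3.2 and 3.4 with siLin28a. The 3 groups overlapped, and every value lay below the lower quartile of all rows. Its log2 fold change was −0.10 for siGFP against untreated cells, with a 95% interval from −0.47 to 0.27, and −0.05 for siLin28a against siGFP, with an interval from −0.42 to 0.32. Leaving out siGFP replicate 2 turned the former to 0.05. The latter turned to 0.10 when siGFP replicate 1 was left out, and to 0.05 when siLin28a replicate 1 was.

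Eif2ak2 was set apart by its untreated arrays, which were at 6.4 and 5.1. A gap of 1.3 or more between the untreated arrays was found in 60 of the 23410 rows, or 0.256%. The siGFP arrays were at 6.3 and 6.0 and the siLin28a arrays at 5.6 and 5.9, all within the untreated range, and the siLin28a arrays were both below the siGFP arrays. Eif2ak2 had a log2 fold change of 0.40 (SE 0.40) for siGFP against untreated cells, and it was −0.25 without untreated replicate 2 and 1.05 without untreated replicate 1. It was −0.40 (SE 0.40) for siLin28a against siGFP, with a 95% interval from −1.38 to 0.58, and 0.00 for siLin28a against untreated cells. The last was −0.65 without untreated replicate 2 and 0.65 without untreated replicate 1.

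Oas2 had the smallest p of the members. It was at 5.0 and 5.0 in untreated cells, at 4.5 and 4.6 with siGFP, and at 5.0 and 5.0 with siLin28a. The siGFP arrays were the low ones, and the untreated and siLin28a arrays held the same value. In siGFP against untreated cells this gives −0.45 on the log2 scale (SE 0.11), rank 77 of 23410 rows by p, with an adjusted p of 0.961 by limma and n = 2 per group. It was 0.45 (SE 0.11) for siLin28a against siGFP, rank 121, with an adjusted p of 0.953 by limma. These comparisons share the siGFP arrays, so they are not separate evidence. For siLin28a against untreated cells the log2 fold change was 0.00, with a 95% interval from −0.27 to 0.27. Without any 1 array the difference from untreated cells lay between −0.50 and −0.40 and that from siGFP between 0.40 and 0.50. A log2 fold change of 0.45 or more in size was found in 3.16% of all rows for siGFP against untreated cells.

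Irf1, a transcription factor that interferon induces and that binds effector gene promoters, was at 7.3 and 7.3 in untreated cells, at 7.3 and 7.4 with siGFP and at 7.4 and 7.7 with siLin28a on its brighter row. Its dimmer row was at 5.0 and 4.7, at 4.8 and 5.0, and at 5.1 and 5.0. The siLin28a arrays were above the untreated ones on the brighter row and touched them on the dimmer row. The log2 fold change for siLin28a against siGFP was 0.20 (SE 0.14) on the former and 0.15 (SE 0.15) on the latter. The former was 0.05 without siLin28a replicate 2 and 0.35 without siLin28a replicate 1, and the latter was 0.05 without siGFP replicate 1 and 0.25 without siGFP replicate 2. For siGFP against untreated cells it was 0.05 on each row, and on the dimmer row it turned to −0.10 without untreated replicate 2 and to −0.05 without siGFP replicate 2.

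Mx2 belongs to the interferon-induced Mx genes, which encode dynamin-like GTPases, and RefSeq records it as a transcribed pseudogene in the reference mouse assembly. It was at 3.2 and 3.0 in untreated cells, at 3.5 in each siGFP array and at 3.3 and 2.7 with siLin28a. The siGFP arrays were the highest, and all 6 values lay below the lower quartile of all rows. Mx2 had a log2 fold change of 0.40 (SE 0.21) for siGFP against untreated cells and −0.50 (SE 0.21) for siLin28a against siGFP, comparisons that share the siGFP arrays. The latter was −0.80 without siLin28a replicate 1 and −0.20 without siLin28a replicate 2. For siLin28a against untreated cells it was −0.10, and 0.20 without siLin28a replicate 2.

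**Figure D2:**
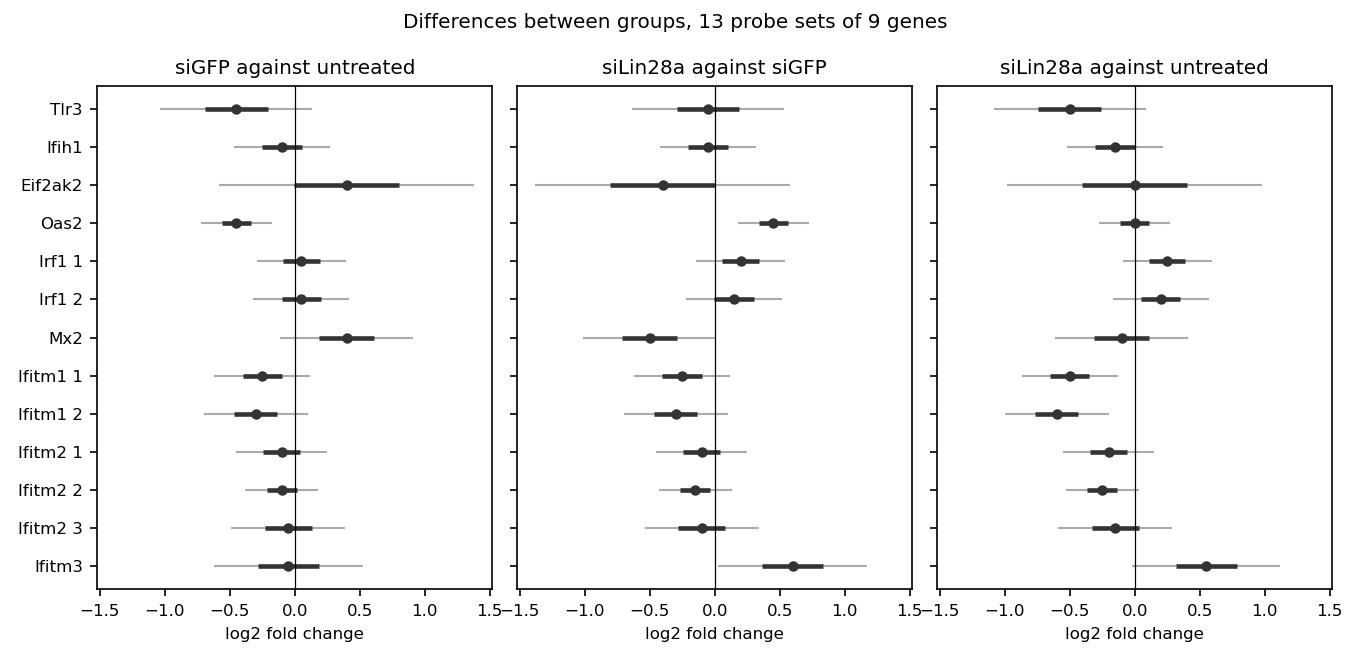
Log2 fold change (x axis) of each row (y axis; numbers mark the rows of a gene) in 3 comparisons. Points are estimates, thick bars the moderated SE and thin bars the 95% interval from limma; the intervals of Oas2 leave out 0 in the first and second panel, that of Ifitm3 in the second, and those of both Ifitm1 rows in the third, while none of these rows passed after adjustment.

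The Ifitm genes encode small membrane proteins that block the entry of many viruses, and Ifitm3 is also known as a marker of early germ cells. In RefSeq the genes Ifitm5, Ifitm2, Ifitm1, Ifitm3, Ifitm6 and Ifitm10 lie in this order on chromosome 7. The rows of Ifitm1, Ifitm2 and Ifitm3 were bright in these ES cells, above the median of all rows in every array. Such family members are similar in sequence, and probe sequences were not used here, so shared hybridization was not tested. The ES cell and germ cell marker means given above were lower in siLin28a arrays, as the Ifitm1 values were, while Ifitm3 was higher there. For siGFP against untreated cells the marker medians were 0.025 (ES cell) and 0.00 (germ cell) on the log2 scale. Ifitm1 was at −0.25 and −0.30 on its 2 rows in that comparison. The part of these markers in the Ifitm results was not tested.

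Ifitm1 was at 10.9 and 11.2 in untreated cells, at 10.7 and 10.9 with siGFP and at 10.6 and 10.5 with siLin28a on its first row. The second row was at 10.1 and 10.4, at 9.8 and 10.1, and at 9.6 and 9.7. On both rows the siLin28a arrays were below every other array, and the siGFP arrays touched the untreated ones. In siLin28a against untreated cells (n = 2 per group) Ifitm1 had a log2 fold change of −0.50 (SE 0.15) on the first row and −0.60 (SE 0.16) on the second, with adjusted p of 0.678 and 0.643 by limma. Against siGFP it was −0.25 (SE 0.15) and −0.30 (SE 0.16), and for siGFP against untreated cells again −0.25 and −0.30. Ifitm1 stayed below 0 in these comparisons under each scaling tried and without any 1 array. Without untreated replicate 2 the values for siGFP against untreated cells were −0.10 and −0.15, and without siGFP replicate 2 those for siLin28a against siGFP were −0.15 on each row.

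Ifitm2 differed less. Its rows were at 10.2 and 10.5, 9.5 and 9.6, and 9.7 and 10.1 in untreated cells. With siGFP they were at 10.2 and 10.3, 9.4 and 9.5, and 9.7 and 10, and with siLin28a at 10.1 and 10.2, 9.3 and 9.3, and 9.7 and 9.8. Only the second row had siLin28a arrays below all others. For siLin28a against untreated cells the log2 fold changes were −0.20, −0.25 and −0.15 (SE 0.14, 0.12 and 0.18). For siLin28a against siGFP they were −0.10, −0.15 and −0.10, of which the last was 0.0083 after a further quantile normalization and 0.05 without siGFP replicate 2. For siGFP against untreated cells they were −0.10, −0.10 and −0.05, and without untreated replicate 2 the first was 0.05 and the third 0.15. The third was also 0.10 without siGFP replicate 1 in that comparison, and 0.05 without untreated replicate 2 for siLin28a against untreated cells. Rows with a mean of at least 6, to which all Ifitm1 and Ifitm2 rows belong, had a median of −0.05 for siLin28a against siGFP, and rows under 6 a median of 0.05.

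Ifitm3 was at 8.7 and 9.3 in untreated cells, at 9.1 and 8.8 with siGFP and at 9.4 and 9.7 with siLin28a. Both siLin28a arrays were above every other array, the opposite order to Ifitm1. In siLin28a against siGFP (n = 2 per group) this is 0.60 on the log2 scale (SE 0.24), a 1.52-fold higher mean with an adjusted p of 0.953 by limma, with a 95% interval from 0.03 to 1.17. A log2 fold change of this size or larger was found in 231 of 23410 rows. Without any 1 array it lay between 0.45 and 0.75. Against untreated cells it was 0.55 (SE 0.24), and 0.25 without untreated replicate 1. For siGFP against untreated cells it was −0.05, and it turned to 0.25 without untreated replicate 2 and to 0.10 without siGFP replicate 2.

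The rest of the family has 4 genes with a row of their own. Ifitm5, a bone-associated member, was at 6.1 and 6.3 in untreated cells, at 5.9 in each siGFP array and at 5.8 and 5.9 with siLin28a. Ifitm7 was at 5.9 and 6.0, at 5.6 in each siGFP array, and at 5.5 and 5.7. Both were thus highest in the untreated arrays, with log2 fold changes for siGFP against untreated cells of −0.30 (SE 0.13) and −0.35 (SE 0.13), and against siGFP of −0.05 and 0.00 for siLin28a. Ifitm6 was at 4.7 and 4.2, 4.1 and 4.2, and 4.3 and 4.2, and Ifitm10 at 5.1 and 5.1, 5.1 and 5.3, and 5.1 and 5.2, so neither separated the groups. In none of the other 9 family rows were both siLin28a arrays above all others.

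**Figure D3:**
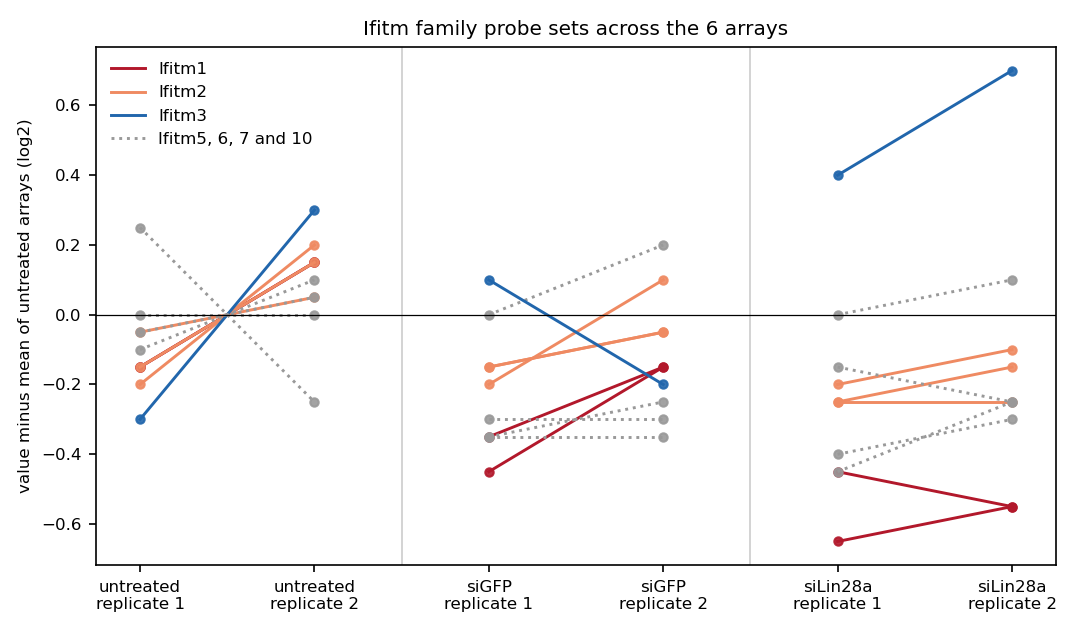
Log2 value of each Ifitm family row minus its mean over the untreated arrays (y axis) in each of the 6 arrays (x axis); each line joins the 2 arrays of a group. Ifitm3 sits at the top in both siLin28a arrays, and both Ifitm1 rows sit at the bottom there, level with Ifitm7 in 1 array, with the Ifitm2 rows between.

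Promoter sequences are shown because Ifitm1 and Ifitm3, of the same gene cluster, had opposite orders in siLin28a cells. RefSeq promoter windows, 250 bases before to 50 after the gene start in build GRCm38.p6, were found for 7 of the 9 genes, all but Mx2 and Oas2. The core of the interferon-stimulated response element, the site of the STAT and IRF complexes, was searched as GAAA, any 2 bases and GAAA again, on both strands. It was present in the windows of 4 of the 7 genes, Ifih1, Ifitm2, Ifitm3 and Eif2ak2, and in 3.99% of 27025 genes. Positions are counted from the gene start, which is 1. The windows from 120 bases before to 30 after the start are shown for the Ifitm genes and for Eif2ak2, with matches in capitals.
Ifitm1, chr7:140967956-140968105, plus strand: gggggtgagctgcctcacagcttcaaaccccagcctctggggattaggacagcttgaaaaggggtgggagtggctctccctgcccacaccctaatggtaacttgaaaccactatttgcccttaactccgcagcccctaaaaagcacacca
Ifitm2, chr7:140955932-140956081, minus strand: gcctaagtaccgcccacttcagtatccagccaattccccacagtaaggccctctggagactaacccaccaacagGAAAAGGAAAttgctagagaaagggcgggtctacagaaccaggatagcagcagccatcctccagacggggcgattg
Ifitm3, chr7:141010715-141010864, minus strand: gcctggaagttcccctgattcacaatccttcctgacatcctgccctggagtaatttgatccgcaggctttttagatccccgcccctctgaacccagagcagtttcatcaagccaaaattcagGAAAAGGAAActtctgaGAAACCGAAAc
Eif2ak2, chr17:78882543-78882692, minus strand: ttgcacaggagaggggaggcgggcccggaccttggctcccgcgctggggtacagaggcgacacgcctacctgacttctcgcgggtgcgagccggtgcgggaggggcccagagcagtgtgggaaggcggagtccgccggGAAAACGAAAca
Ifitm3 holds 2 matches, at positions 3 to 12 and 20 to 29. Ifitm2 holds 1 at −46 to −37, and Eif2ak2 holds 1 at 19 to 28. Ifih1 has 1 match at 33 to 42, outside the stretch shown, and the Ifitm1 window holds none of these letters. The core of the gamma-activated site, searched as TTCNNNGAA on both strands, was found in the windows of Ifitm3 at 14 to 22, overlapping the second match there, of Irf1 at −90 to −82 and of Eif2ak2 at −178 to −170. It was in 9.55% of the 27025 genes. Of the genes with a response element match, Ifitm3 had a log2 fold change of 0.60 for siLin28a against siGFP. Ifitm2 had −0.15 to −0.10 over its rows, Eif2ak2 −0.40 and Ifih1 −0.05. A match describes letters and is no evidence of binding, and the part of the matches in these differences was not tested.

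The response element core was in the window of 607 genes with a row, and their median log2 fold change was 0.00 for siGFP against untreated cells and 0.00 for siLin28a against siGFP, as it was over all 15614 genes with a row and a window. In siGFP against untreated cells 255 of the 607 were higher (42.0%, against 44.3% of the 15614) and 282 lower (46.5%, against 43.5%). Of the genes in the pathway lists, 36 had the core in their window, with 16 higher, 17 lower and 3 equal in that comparison. The 36 split into 14 higher (38.9%, against 38.4% of the 15614) and 19 lower (52.8%, against 49.6%) for siLin28a against siGFP. For siLin28a against untreated cells 19 were higher (52.8%, against 41.9% of the 15614) and 12 lower (33.3%, against 46.9%). Of the 607 genes with the core, 41.7% were higher and 44.6% lower in that comparison, near the shares of the 15614. The 96 pathway genes with a window without the core were 36.5% higher and 54.2% lower there. These splits were not tested.

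The wider pathway was read from lists of 180 genes by role, of which 157 had a row of their own. By limma 0 of the 157 passed over all rows in each comparison. At an unadjusted p under 0.05 there were 9 for siGFP against untreated cells, or 5.73% against 3.52% of all rows. Of the 157, 3 were higher (against 2.19% of all rows) and 6 lower (against 1.33%). For siLin28a against siGFP there were 7, or 4.46% against 4.05%, with 5 higher (against 1.79%) and 2 lower (against 2.26%). For siLin28a against untreated cells there were 11, or 7.01% against 6.44%, with 4 higher (against 2.89%) and 7 lower (against 3.55%). With both directions together, the shares in the siLin28a comparisons lie near those over all rows. The share for siGFP against untreated cells is higher than that over all rows, and this difference was not tested. The median log2 fold change over the 157 was 0.00 in each, as over all rows.

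Among the interferons, 16 genes with a row, Ifnb1, the type I interferon that RNA sensors induce first, was at 2.7 and 3.2 in untreated cells, at 3.0 in each siGFP array and at 3.4 in each siLin28a array. Ifnl2, a type III interferon, was at 6.4 and 6.3, at 6.3 and 6.4, and at 6.9 and 6.6. For both the difference was 0.40 on the log2 scale (SE 0.18 and 0.14) for siLin28a against siGFP and 0.05 and 0.00 for siGFP against untreated cells. Ifna16 was at 4.3 and 4.0 in untreated cells, at 4.8 in each siGFP array and at 5.1 and 4.7 with siLin28a, a log2 fold change of 0.65 (SE 0.18) for siGFP against untreated cells. Ifnk was at 2.3 and 2.1 with siGFP and at 2.5 in the other 4 arrays. The interferon rows were dim, with 14 of 16 under a mean of 6. Their median was 0.00 for siGFP against untreated cells and 0.08 for siLin28a against siGFP, where all rows under 6 had 0.00 and 0.05.

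The receptor and signalling list, with 15 genes, had a median of 0.00 for siGFP against untreated cells and −0.05 for siLin28a against siGFP. Il10rb, a subunit of the type III interferon receptor, was at 3.7 and 3.8 in untreated cells, at 4.0 and 4.2 with siGFP and at 4.1 in each siLin28a array. Stat2 had a log2 fold change of 0.20 (SE 0.11) for siGFP against untreated cells. Irf9, its partner in the interferon-activated complex, and the receptor subunit Ifnlr1 had −0.25 (SE 0.16) and −0.20 (SE 0.13) for siLin28a against siGFP.

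The 21 sensors, 4 of them members described above, had a median of −0.10 for siGFP against untreated cells and −0.05 for siLin28a against siGFP. Cgas, which senses DNA in the cytosol, was at 3.3 and 3.1 in untreated cells, at 2.7 in each siGFP array and at 3.0 and 2.9 with siLin28a, all dim values, with a log2 fold change of −0.50 (SE 0.13) for siGFP against untreated cells. The 17 adaptors and kinases had medians of −0.05 in both comparisons. Ticam2 and Tbkbp1 had 0.20 each (SE 0.14 and 0.16) for siGFP against untreated cells. The kinase Tbk1, which activates IRF3, had −0.35 (SE 0.19), and the adaptor Sting1 0.30 (SE 0.21), for siLin28a against siGFP.

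The inhibitors, 13 genes, had medians of 0.05 and −0.05. Trim24 and Otud5 had 0.25 (SE 0.23) and −0.15 (SE 0.11) for siGFP against untreated cells, and the deubiquitinase Cyld and the phosphatase Ptpn2 had −0.35 (SE 0.15) and −0.25 (SE 0.25) for siLin28a against siGFP. Among other response genes Helz2 had −0.20 and 0.25 (SE 0.11 each) in the same comparisons, Ppp1r15a 0.15 (SE 0.14) in the first and the NF-kappaB inhibitor Nfkbia −0.30 (SE 0.14) in the second.

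The 64 effector genes had a median of 0.00 for siGFP against untreated cells, with 25 higher, 31 lower and 8 equal. For siLin28a against siGFP it was 0.05, with 34 higher, 22 lower and 8 equal. Of the 64, 40 had a mean under 6. The 12868 rows with a mean under 6 also had a median of 0.05 in that comparison, with 6441 higher and 4887 lower. Over all 23410 rows 8969 were higher and 11605 lower. Rnf213, a large interferon-induced ubiquitin ligase, was at 8.5 and 8.4 in untreated cells, at 8.2 in each siGFP array and at 7.5 in each siLin28a array. Its log2 fold change for siLin28a against siGFP was −0.70 (SE 0.11) on this row and −0.80 (SE 0.12) on its other row, which was at 7.9 in each untreated, 7.8 in each siGFP and 6.9 and 7.1 in the siLin28a arrays. Zc3hav1, which encodes the antiviral RNA-binding protein ZAP, was at 6.0 and 5.8 in untreated cells, at 6.3 in each siGFP array and at 5.6 and 5.7 with siLin28a. Its log2 fold change was 0.40 (SE 0.13) for siGFP against untreated cells and −0.65 (SE 0.13) for siLin28a against siGFP. B2m, the light chain of MHC class I, was at 6.9 and 7.1, at 7.6 and 7.2, and at 7.4 and 7.3. For siLin28a against siGFP the effector gene Ifitm3 was thus higher, and Rnf213 and Zc3hav1 were lower. Rnf213 and Zc3hav1 are named for the size of that change, and no row of these genes passed after adjustment.

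**Figure D4:**
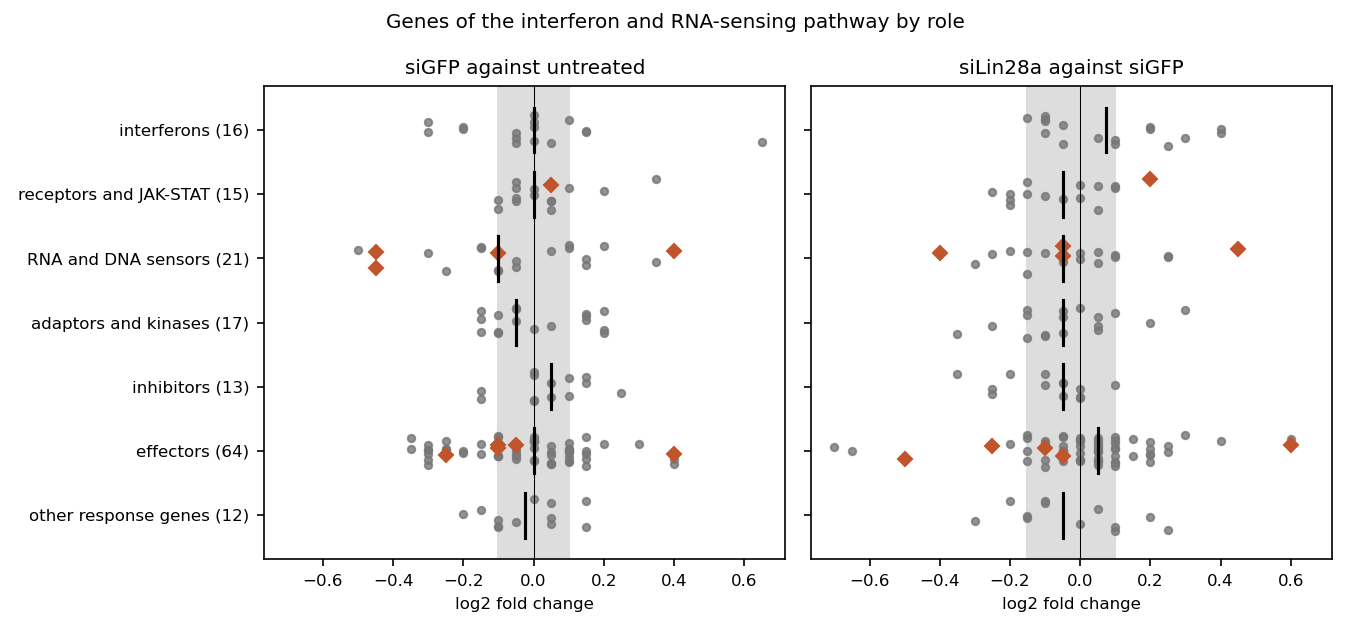
Log2 fold change (x axis) of the pathway genes by role (y axis, number of genes with a row in brackets) for siGFP against untreated cells and siLin28a against siGFP. Orange diamonds are the members, grey points the other genes, vertical bars the list medians, which lie between −0.10 and 0.08, and the shaded band holds the middle of all rows from the lower to the upper quartile.

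The mean of both siRNA groups was also set against untreated cells, to show what the siRNAs have in common. None of the 13 rows passed by limma, where 0% of all rows were called, and the smallest adjusted p of a member was 0.841. At an unadjusted p under 0.05 there were 2 of 13 rows, against 5.43% of all rows (0 higher against 2.89%, 2 lower against 2.55%), and they were the 2 Ifitm1 rows at −0.38 (SE 0.13) and −0.45 (SE 0.14). Tlr3 had −0.48 (SE 0.21), Oas2 −0.23 (SE 0.10), Mx2 0.15 (SE 0.18) and Ifih1 −0.13 (SE 0.13). For 0 of the 13 rows were the siRNA arrays all on 1 side of the untreated ones, against 7.69% of all rows (4.11% higher, 3.58% lower).

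Profiles over the 6 arrays, each row centred on its own mean, were compared for Ifitm3 and Ifitm1, the members with the widest ranges of group means (0.60 and 0.50, the latter shared with Mx2 and Tlr3, so that Ifitm1 was taken by symbol order). The nearest rows to Ifitm3 by root mean square difference were Malrd1 (0.08), Ano3 (0.09) and Zcchc3 (0.13), against a median of 0.37 over all rows with 1 gene. Malrd1 and Ano3 were dim, between 2.3 and 3.5, and Zcchc3 lay between 7.3 and 7.9. The nearest to Ifitm1, on its first and brighter row, were Bckdhb (0.06), Echdc2 (0.07) and Nhlrc2 (0.07), against a median of 0.26. For Ifitm1, 5 rows lay no further away than Nhlrc2, and ties were broken by brightness. With 21788 rows compared over 6 arrays, close profiles are a description of these arrays only.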

How the data were processed

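The deposited values are log2 expression of 6 arrays, made by the authors with RMA in Affymetrix Expression Console per the submitters' processing notes. RMA corrects for background, normalizes by quantiles and summarises probe sets on a log2 scale. No versions are stated. Groups came from the sample titles, and gene names from the platform annotation. All 13 member rows matched RefSeq by Entrez number.

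The main test was limma (version 3.58.1, R 4.3.3) with lmFit, contrasts.fit and eBayes without trend, two-sided. It used all 6 arrays and the 23410 rows with a gene, unfiltered, with 3 residual and 3.19 prior degrees of freedom. Benjamini-Hochberg adjustment ran over those rows, and calls were made at 0.05. An exact permutation of 2 against 2 arrays cannot give a p under 0.333, so none was run, and the number of arrays limits the precision. A gene with several rows stands in the lists by its brightest row. Scripts were tested on simulated data.

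The members and lists were chosen with earlier results of these data known. Named beside the members and Lin28a are, per pathway list and for each of 2 comparisons, the 2 genes with the largest log2 fold change (ties by p), and the 3 nearest profiles of 2 members. The other Ifitm genes, the second Rnf213 row and single cell type markers were named after their values were seen. Alternatives were other priors and fits, scalings, filters, a replicate block and leaving out each array.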

Additional observations from a re-analysis of the deposited data

How the results depend on the processing

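None of the 52 member results (13 rows in 4 comparisons) passed under any alternative, and the lowest adjusted p was 0.40. In the fits that kept every array of the groups compared, between 0 and 4 member rows had an unadjusted p under 0.05. The 4 of 13 were in siLin28a against untreated by limma, with a robust prior, further quantile normalization or cyclic loess. Of all 23410 rows, 1591, 1658 and 1659 had such a p there. The 0 was in siGFP against untreated with rows under a mean of 6 left out, where 365 of 10542 rows had such a p. Over all rows, 0 passed in the main fit, with 825 (siGFP against untreated), 949 (siLin28a against siGFP), 1508 (siLin28a against untreated) and 1272 (both siRNA groups against untreated) at an unadjusted p under 0.05. A robust prior called 1 in siLin28a against siGFP, 7 in siLin28a against untreated and 1 in both siRNA groups against untreated, and cyclic loess called 1 and 5 in the first and second of these; the cause was not tested. Shifting the arrays to the same median or quantile normalizing again moved the split of all rows at an unadjusted p under 0.05, from 676 higher and 832 lower to 979 and 679 for siLin28a against untreated (quantiles), and from 676 and 596 to 766 and 357 for both siRNA groups against untreated (median). Least squares without the shared prior called 0 in each. Eif2ak2, at 0.00 for siLin28a against untreated, ranged from −0.65 to 0.65 without 1 array. Values that fell to 0 under an alternative, as for Ifitm3 in siGFP against untreated, are not listed. Where the main value was not 0, no direction turned to its opposite under any alternative except as follows. A further quantile normalization gave 0.0083 for Ifitm2 row 3 in siLin28a against siGFP. Without 1 array each, siGFP against untreated ranged from −0.25 to 0.05 (Ifitm2 row 1), −0.25 to 0.15 (Ifitm2 row 3), −0.35 to 0.25 (Ifitm3), −0.25 to 0.05 (Ifih1), −0.25 to 1.05 (Eif2ak2) and −0.10 to 0.20 (Irf1 row 2). siLin28a against siGFP ranged from −0.25 to 0.05 (Ifitm2 row 3), −0.30 to 0.20 (Tlr3) and −0.20 to 0.10 (Ifih1). siLin28a against untreated ranged from −0.35 to 0.05 (Ifitm2 row 3) and −0.40 to 0.20 (Mx2). Both siRNA groups against untreated ranged from −0.30 to 0.10 (Ifitm2 row 3), −0.05 to 0.55 (Ifitm3), −0.45 to 0.85 (Eif2ak2) and −0.025 to 0.275 (Irf1 row 2). The groups share replicate numbers, but the labels do not say that a number pairs arrays. The fit with a replicate block called 0 rows and 0 members in each comparison, as without it. Deviations of replicate 1 correlated at 0.15 between untreated and siGFP, −0.04 between untreated and siLin28a and 0.36 between siGFP and siLin28a. All 28 list medians stayed within the spread between arrays when each gene's rows were averaged. Leaving out rows with a mean under 6 removes Mx2, Oas2, Tlr3, Ifih1, Eif2ak2 and Irf1 row 2, which have no value under that alternative.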
